A study of Drosophila melanogaster with 18 samples.

Results

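The interaction of line and copper asks how much the copper response of Drosophila S2 cells that carry a Zelda (Zld) transgene differs from the copper response of wild type S2 cells. It was computed per gene on the log2 scale as the copper change in the Zld line minus the copper change in wild type, so a difference that stands between the lines without copper and a response to the metal that the lines share both cancel. It was chosen by design, from the labels, and rests on 8 of the 18 libraries of the series, 2 in each of 4 groups. The groups were the Zld line with copper (S2-Zld, treatment printed as 1000mM CuSO4), the Zld line without copper (S2-Zld, uninduced), wild type with copper (S2-WT, printed as 1000uM CuSO4) and wild type without copper (S2-WT, uninduced). The number 1000 was matched as printed, and whether the unit differs between the lines cannot be told from the labels. All 4 groups are S2 cells, an established line from fly embryos, and polyA RNA was taken. In the groups with copper this was 48 h after CuSO4 was added, and no time is recorded for the groups without copper. The promoter of the transgene, and whether the line is a single clone, are not given in the sources used here.

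Zld is a zinc-finger transcription factor that is known as a pioneer factor: it binds its motif in closed chromatin and helps open it, and it is required to activate the zygotic genome of the early fly embryo. S2 cells resemble macrophages of the fly, called plasmatocytes, and do not normally use Zld. Copper itself acts on fly cells through the metal-responsive factor MTF-1, which drives the metallothionein genes, so a transgene switched on by copper has to be compared with cells that received the metal alone.

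The 8 libraries held between 10459648 and 18510129 counts over 17609 genes, and 8881 genes had enough counts to be tested. A floor of 3 counts corresponded to 0.162 to 0.287 CPM, where CPM are counts per 1000000 counts of the library. Nothing in the labels ties the replicates of a group to different cultures. Each p therefore measures the spread between these samples, which may be technical, with 4 residual degrees of freedom. Replicate 1 of both groups without copper stood apart from replicate 2 in transcripts of the early embryo. Of 45 genes on an early zygotic list, 28 had more than 2 times as many counts in replicate 1 of wild type without copper and 0 in replicate 2. In the Zld line without copper the same counts were 25 and 4, although its replicate 1 was the library with the fewest counts. In the groups with copper they were 5 and 6 in the Zld line and 7 and 8 in wild type. The gene bnk, which acts in cellularization of the embryo, showed it with 21 and 2 counts in the Zld line without copper and 58 and 1 counts in wild type without copper. The part of this difference in the results was not tested, and values without these libraries are given for zld, lncRNA:roX1, dpp, htl and MtnA.

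The transgene was checked first. The gene zld stood at 5503 and 5211 CPM in the Zld line with copper, at 214 and 306 CPM in the Zld line without copper, at 1.09 and 1.57 CPM in wild type with copper and at 16.0 and 1.51 CPM in wild type without copper. Both libraries of the Zld line with copper were far above all others, both libraries of the line without copper were above all wild type libraries, and the wild type groups overlapped. The log2 interaction was 7.10 ± 1.35 (SE, adjusted p = 0.0349 by edgeR's quasi-likelihood test with Benjamini-Hochberg adjustment, which gives every adjusted p below). Without replicate 1 of wild type without copper, the library with 296 zld counts against 26 in replicate 2, it was 4.56 ± 0.85 with an adjusted p of 0.0197. The call was lost without replicate 1 or 2 of the Zld line without copper (adjusted p = 0.0848 and 0.0627) and without replicate 1 or 2 of wild type with copper (adjusted p of 0.163 each). It was also lost with a replicate block (0.0847), with limma voom (0.112) and when tested against 1.5-fold (0.120), each an adjusted p. Reads of the transgene and of the gene's own locus, chrX:19766465-19783548 on dm6, cannot be told apart in gene counts.

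For the best known target of the metal itself no interaction was called, but this rested on a single library. The metallothionein gene MtnA, whose protein binds copper, stood at 4654 and 4496 CPM in the Zld line with copper, 68.7 and 74.3 CPM in the Zld line without copper, 8285 and 7453 CPM in wild type with copper, and 126 and 52.2 CPM in wild type without copper. Each line's libraries with copper were above its libraries without copper, with log2 copper changes of 6.02 ± 0.43 in the Zld line and 6.48 ± 0.43 in wild type. The log2 interaction of MtnA was -0.46 ± 0.50 with an adjusted p of 0.648. Its libraries of wild type without copper differed, and the interaction was called at -1.22 without replicate 1 of that group (adjusted p = 0.000881) and was 0.03 without replicate 2 (adjusted p = 0.953). Without the filter on low counts it was also called, at -0.45 (adjusted p = 2.33e-05). Of 16 tested genes on a metal response list, 2 were higher in the interaction and 0 were lower, against 12.5% of all tested genes called in either direction. They were ATP7, the copper-exporting ATPase, with a log2 interaction of 0.48 ± 0.08, and whd, a carnitine palmitoyltransferase known to affect metal tolerance in flies, with 0.39 ± 0.10, a call lost under 7 of 16 other settings. MtnB had 444 counts in the Zld line with copper and 0 in that line without copper, so its ratio there was at least 136 against 3 counts over the group, and its interaction was not called.

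Across all genes, 1110 of 8881 tested were called in the interaction at an adjusted p under 0.05, 529 higher (5.96%) and 581 lower (6.54%). At an unadjusted p under 0.05 the number was 2321. With a log2 interaction of at least 1, 272 were higher (3.06%) and 85 were lower (0.957%). The larger interactions were thus mostly positive while the calls as a whole were split almost evenly. Called copper changes of at least 2-fold leaned the same way. They were 1007 higher and 149 lower in the Zld line, and 411 and 75 in wild type. Whether the lean depends on genes near the floor was not tested. The median log2 interaction over all tested genes was 0.02. The count depended on single libraries: it was 699 without Zld line with copper replicate 1, 2000 without Zld line without copper replicate 2, 593 and 622 without replicates 1 and 2 of wild type with copper, and 644 and 716 without replicates 1 and 2 of wild type without copper. In every called gene the 4 pairwise copper changes of the Zld libraries lay all on the same side of the 4 pairwise copper changes of the wild type libraries, which was also so for 41.4% of all tested genes.

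The separate copper effects were broader than the interaction. Copper in the Zld line called 4056 genes (45.7%), and copper in wild type called 2594 (29.2%), or 1227 to 1390 without any 1 of the 4 wild type libraries. Across the 8881 genes the log2 copper changes of the Zld line and of wild type had a Pearson r of 0.590 and a Spearman rho of 0.594, as a description over genes, which are not independent replicates. The pairs of groups behind these values share no library. Of the 411 genes that rose at least 2-fold with copper in wild type (4.63%), 354 were also called higher in the Zld line, and 44 were higher and 15 lower in the interaction. Of the 75 genes that fell at least 2-fold in wild type (0.844%), 34 were also called lower in the Zld line, and 20 were higher and 4 lower in the interaction. An interaction was thus called for 14.4% of the genes that copper raised in wild type and for 32.0% of those it lowered, and the difference between these shares was not tested. These genes were picked by the wild type copper change, which the interaction subtracts using the same libraries. Their interaction calls are therefore not independent of the picking.

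**Figure D1:**
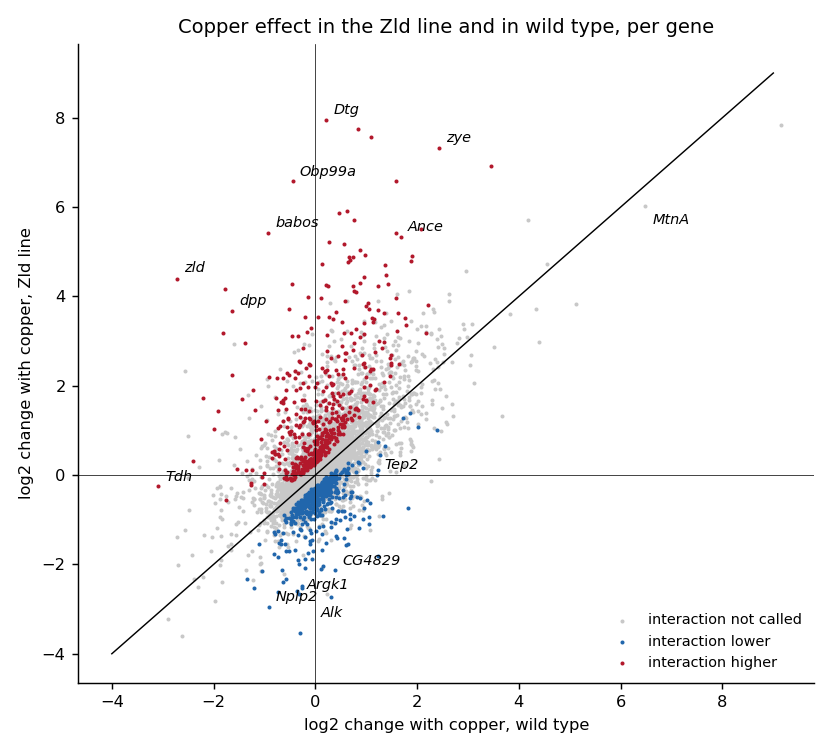
Each point is a gene with more than 3 counts in each of the 4 groups, placed by its log2 copper change in wild type (x axis) and in the Zld line (y axis), red where the interaction was called higher, blue where it was called lower. The diagonal marks equal changes: MtnA lies near it at 6.48 and 6.02, Dtg lies far above it at 0.22 and 7.95, and Alk below it at 0.31 and -2.73.

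A positive interaction can come from a rise in the Zld line, from a fall in wild type or from both. Of the 529 genes higher in the interaction, 294 (55.6%) rose with copper in the Zld line and were not called in wild type, 131 rose in both lines and more in the Zld line, 43 rose in the Zld line and fell in wild type, and 57 were not called in the Zld line and fell in wild type. Another 3 were called in neither line. Of the 581 genes lower in the interaction, 306 (52.7%) fell in the Zld line and were not called in wild type, 106 fell in both lines and more in the Zld line, 76 fell in the Zld line and rose in wild type, and 76 were not called in the Zld line and rose in wild type. A further 12 rose in both and less in the Zld line, and 5 were called in neither. In the largest class on each side, then, the copper response was called in the Zld line and not in wild type.

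**Figure D2:**
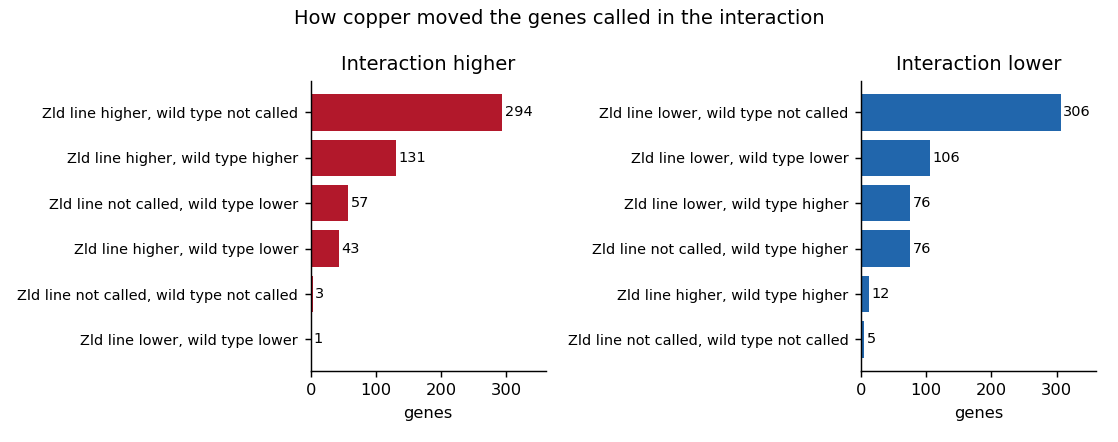
Number of genes called in the interaction (x axis) in each class of copper effect, with genes higher in the interaction on the left and lower on the right. The longest bars are the 294 genes that rose and the 306 that fell with copper in the Zld line with no call in wild type.

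The same genes can be described by the difference between the lines. At 1000 the lines differed in 3423 genes (38.5%), and without copper in 1837 (10.4% higher and 10.2% lower). Of the calls at 1000, 1785 were higher and 1638 lower in the Zld line, against 1293 and 2539 when scaled by library size alone, and without copper the split was 927 and 910 against 562 and 1831. Library size alone put the median log2 line difference over all genes at -0.08 at 1000 and -0.10 without copper. The count at 1000 was 2106 without replicate 1 of the Zld line with copper and 2169 and 2104 without replicates 1 and 2 of wild type with copper, and the count without copper was 782 and 818 without replicates 1 and 2 of wild type without copper. At 1000, 437 of the 529 genes higher in the interaction were higher in the Zld line than in wild type, 78 were not called and 14 were lower (20.1% of all tested genes were called higher in that comparison). Of the 581 lower in the interaction, 449 were lower in the Zld line than in wild type at 1000, 104 were not called and 28 were higher (18.4% of all tested genes were called lower). Without copper, 360 of the 529 (68.1%) and 344 of the 581 (59.2%) were not called between the lines. Of the 529, 128 (24.2%) were lower in the Zld line without copper and 41 (7.75%) were higher. Of the 581, 182 (31.3%) were higher in the Zld line without copper and 55 (9.47%) were lower. The shares over all tested genes were 10.4% higher and 10.2% lower. A smaller class closed a gap that stood without copper: 66 genes higher in the interaction were lower in the Zld line without copper and not called between the lines with copper, and 91 genes lower in the interaction were higher in the Zld line without copper and not called with copper. These comparisons share libraries with the interaction, so their calls are not independent of it.

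Among genes with more than 3 counts in each group and at least 5 CPM in 1 group, the highest interaction was that of Dtg (chr3R:12648058-12652910), known as a target of the BMP ligand Dpp in the embryo. It stood at 105 and 95.8 CPM in the Zld line with copper, 0.574 and 0.297 CPM in the Zld line without copper, 0.243 and 0.722 CPM in wild type with copper and 0.594 and 0.232 CPM in wild type without copper. The libraries of the Zld line with copper were far above the other 6, which were below 1 CPM and overlapped one another. The log2 interaction was 7.74 ± 0.86 (adjusted p = 0.000126).

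Next after zld came Obp99a, which encodes an odorant-binding protein. It had 129 and 156 CPM in the Zld line with copper, 1.63 and 1.42 CPM in the Zld line without copper, 1.70 and 1.38 CPM in wild type with copper, and 1.51 and 2.79 CPM in wild type without copper. Again the Zld line with copper stood alone and the other groups overlapped, and the log2 interaction was 7.03 ± 0.44 (adjusted p = 2.85e-06). Phk-3, which encodes a pherokine of the chemosensory protein family, had 89.3 and 68.6 CPM in the Zld line with copper against at most 0.482 CPM in any other library (log2 interaction 6.91 ± 1.03). The cytochrome P450 gene Cyp305a1 had 43.6 and 41.3 CPM in the Zld line with copper against at most 0.546 CPM elsewhere (6.47 ± 0.97). Phk-3 and Cyp305a1 had at most 9 counts in each of the other 6 libraries, whereas Obp99a had 17 to 48.

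The gene babos combined a rise in the Zld line with a fall in wild type. It had 95.8 and 100.1 CPM in the Zld line with copper, 2.49 and 2.19 CPM in the Zld line without copper, 0.911 and 0.963 CPM in wild type with copper and 2.0 and 1.63 CPM in wild type without copper. Its log2 interaction was 6.36 ± 0.28, the sum of a rise of 5.42 in the Zld line and a fall of 0.93 in wild type, with no overlap between the groups with and without copper of either line. Other genes cover 10.7% of its exonic bases, where the library kit leaves the source of a read uncertain. The gene zye reached the highest level of the 14 highest interactions after zld, 543 and 508 CPM in the Zld line with copper against 2.77 and 3.68 CPM in the Zld line without copper, 3.4 and 3.79 CPM in wild type with copper and 0.702 and 0.639 CPM in wild type without copper. Copper raised zye in both lines, and its log2 interaction was 4.90 ± 0.40 (adjusted p = 9.77e-06).

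The rest of the 14 highest ran from 4.95 to 5.93 on the log2 scale. They were lncRNA:roX1, an RNA of the X chromosome dosage compensation complex, Aplip1, a scaffold that links JNK signalling to kinesin, dpp and tld, described with their pathway, the amylase gene Amy-p, and CG13506 and CG13024. Aplip1 had 29.3 and 26.1 CPM in the Zld line with copper, 0.574 and 0.415 CPM in the Zld line without copper, 1.28 and 1.93 CPM in wild type with copper and 1.30 and 1.05 CPM in wild type without copper (log2 interaction 5.40 ± 0.45). The Zld line with copper was above every other library, and without copper the Zld line was below wild type. For lncRNA:roX1 the values were 17.9 and 22.0 CPM in the Zld line with copper, 2.49 and 0.237 CPM in the Zld line without copper, 0.425 and 0.421 CPM in wild type with copper and 2.38 and 0.523 CPM in wild type without copper. Its replicates without copper differed in both lines, with replicate 1 the higher. The interaction of 5.93 ± 1.30 (adjusted p = 0.0297) was 4.45 ± 1.64 with an adjusted p of 0.181 without replicate 1 of wild type without copper, and 8.08 ± 1.16 with an adjusted p of 0.00366 without replicate 1 of the Zld line without copper. The call was also lost without either replicate of wild type with copper. Other genes cover 7.17% of its exonic bases, and 4.70% of those of CG13506. The loci of CG13506 (chr2R:22383134-22394015) and babos (chr2R:22393876-22402059) overlap on opposite strands. In shared bases the kit leaves the source of a read uncertain.

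Some genes called higher had 3 or fewer counts in a group, and for these the fitted interaction is not a size. In 35 called genes this was so, and the 4 with the highest level in any group are given by counts. CG43085 had 439 counts in the Zld line with copper and 3 in that line without copper, a CPM ratio of 134 with a 95% exact interval of 45.6 to 653. Sod3, an extracellular superoxide dismutase, had 246 and 2 counts, a ratio of 113 with an interval of 30.9 to 936. Amy-d had 243 counts in the Zld line with copper and 1 in that line without copper. Amy-d and Amy-p are near-identical neighbours, so how reads were split between them is uncertain. Jhbp2 had 170 and 0 counts, at least 52.0-fold higher in the Zld line with copper, and its call was lost under 5 of 16 other settings. The intervals and bounds cover counting error only, and all 4 genes had between 0 and 1.14 CPM in every wild type library.

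**Figure D3:**
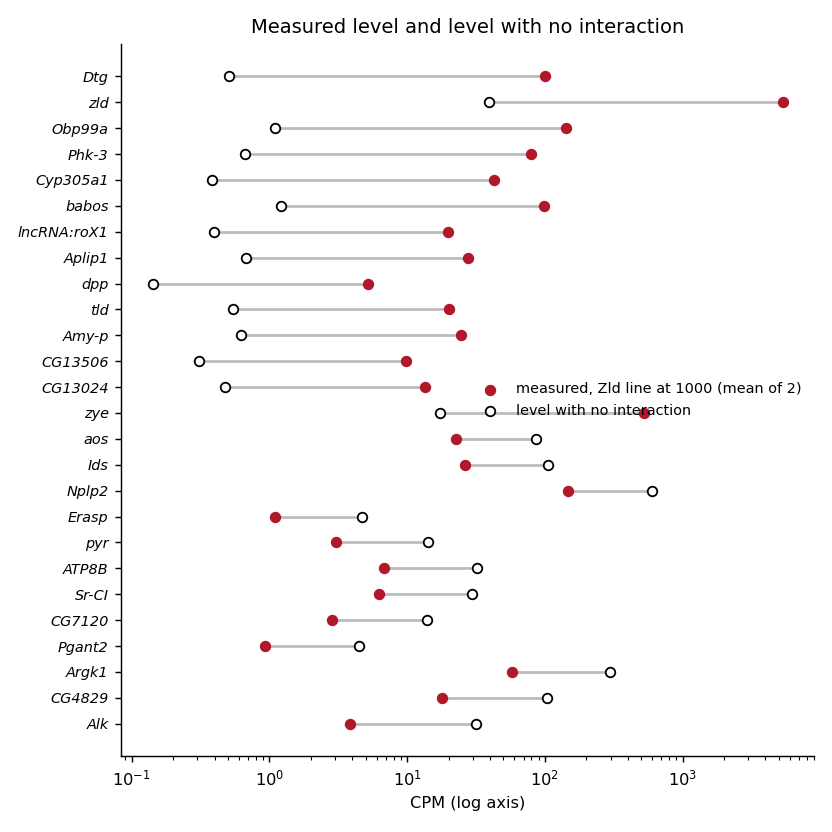
For the 14 highest and 12 lowest interactions, the measured mean CPM of the Zld line with copper (filled, mean of 2 libraries) and the level it would have had with the wild type fold change and no interaction (open), on a log axis. Dtg was measured at a mean of 100.3 CPM against 0.508 CPM with no interaction, and Alk at 3.86 CPM against 31.9 CPM.

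Genes of the Dpp pathway were among the highest interactions. Dpp is a secreted BMP ligand that patterns the dorsal side of the embryo, Tolloid-type proteases free it from its antagonist Sog, the receptors Tkv and Put pass the signal to the transcription factor Mad, and glypicans shape its spread. Of 29 genes on a Dpp/BMP list, 21 were tested, and 7 were higher and 3 lower in the interaction, with 5.96% and 6.54% of all tested genes as the background. Dtg is one of the 7. This list, like the others, was chosen with earlier results of these data known, so its count is a description and not a test. The median log2 interaction of the list was 0.14, against 0.02 for all genes, and the high values belonged to a few members.

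The ligand gene dpp (chr2L:2428372-2459823) had 5.93 and 4.49 CPM in the Zld line with copper, 0.669 and 0.237 CPM in the Zld line without copper, 0.364 and 0.542 CPM in wild type with copper and 1.84 and 1.05 CPM in wild type without copper. Copper went with higher levels in the Zld line and lower levels in wild type, with no overlap within either line. Its log2 interaction was 5.32 ± 0.65 (adjusted p = 0.00025), made of 3.68 in the Zld line and -1.64 in wild type. Without copper dpp was lower in the Zld line than in wild type, by a log2 difference of -1.72 ± 0.52 (adjusted p = 0.0353). With each library left out in turn its interaction lay between 4.65 and 6.03 and was called each time.

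The neighbouring protease genes tok and tld, on chromosome 3R, both rose. The gene tld (chr3R:24749731-24753510), whose product cleaves Sog, had 19.7 and 20.7 CPM in the Zld line with copper, 0.478 and 0.237 CPM in the Zld line without copper, 0.364 and 0.241 CPM in wild type with copper and 0.108 and 0.290 CPM in wild type without copper. The 2 libraries of the Zld line with copper were far above the other 6, which overlapped, and the log2 interaction was 5.30 ± 0.89 (adjusted p = 0.00216). It lost its call without replicate 2 of wild type without copper (adjusted p = 0.0854). The gene tok (chr3R:24719697-24749125), a related protease, was expressed in all groups: 78.7 and 84.0 CPM in the Zld line with copper, 7.94 and 7.59 CPM in the Zld line without copper, 11.5 and 12.1 CPM in wild type with copper and 4.97 and 5.92 CPM in wild type without copper. Copper raised it in both lines without overlap, more in the Zld line, with a log2 interaction of 2.28 ± 0.17 (adjusted p = 4.19e-06).

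Ance, an angiotensin-converting enzyme relative expressed in dorsal tissue of the embryo under Dpp, behaved like tok. It had 85.3 and 83.5 CPM in the Zld line with copper, 2.01 and 2.19 CPM in the Zld line without copper, 9.59 and 9.09 CPM in wild type with copper and 3.24 and 2.61 CPM in wild type without copper. Its log2 interaction was 3.65 ± 0.22 (adjusted p = 1.13e-06), beside log2 copper changes of 5.33 in the Zld line and 1.68 in wild type. The glypicans went opposite ways. The glypican gene dlp was higher in the interaction by 1.33 ± 0.19, with 47.1 ± 7.06 CPM in the Zld line with copper, 14.5 ± 2.46 CPM in the Zld line without copper, 24.5 ± 1.86 CPM in wild type with copper and 19.1 ± 0.0241 CPM in wild type without copper (SD, 2 libraries each). The glypican gene dally was lower by 1.57 on the log2 scale, with 20.0 ± 0.470 CPM in the Zld line with copper, 76.6 ± 2.32 CPM in the Zld line without copper, 47.3 ± 1.90 CPM in wild type with copper and 60.2 ± 4.42 CPM in wild type without copper (SD, 2 libraries each).

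Among the receptors and intracellular members the values were small. The type I receptor gene tkv had a log2 interaction of 0.45 ± 0.10, from a log2 change of 0.03 in the Zld line and of -0.43 in wild type. The zinc-finger gene shn (-0.40 ± 0.11), whose product acts with Mad, and the GATA factor gene pnr (-0.49 ± 0.09) were lower. The receptor genes put (0.07) and sax (0.14), Mad (0.05), the inhibitory Smad gene Dad (0.16), the repressor gene brk (-0.00) and the antagonist gene sog (0.05) were not called. Genes that respond to Dpp signalling were thus mixed: Dtg and Ance were higher, and Dad and brk were not called.

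**Figure D4:**
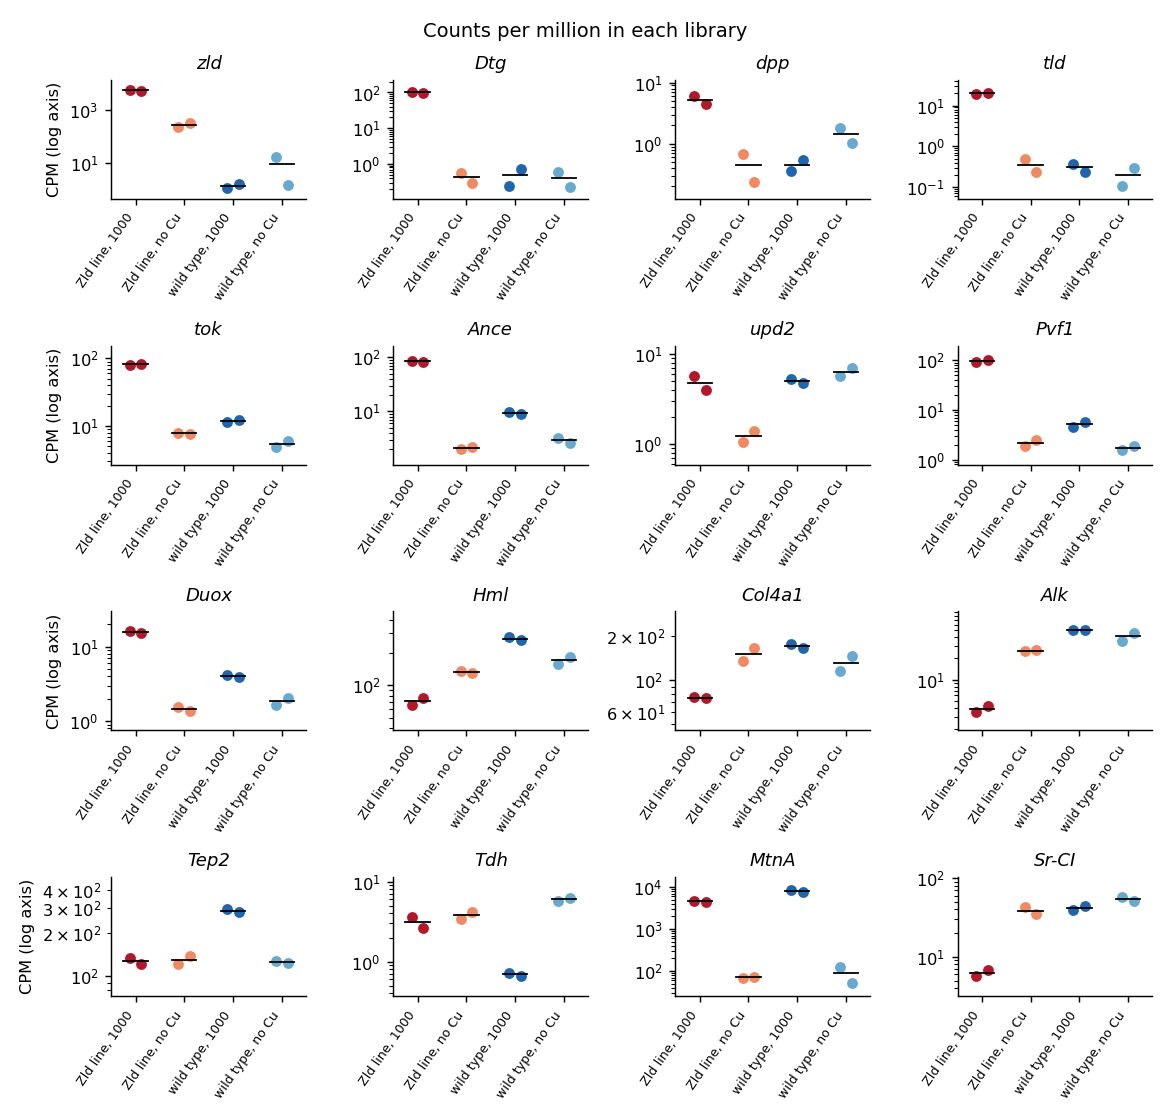
CPM on a log axis in each of the 8 libraries (points) with the group mean (line) for 16 genes, the Zld line with copper and without copper to the left of wild type with copper and without copper. For tld both libraries of the Zld line with copper lie at 19.7 and 20.7 CPM above 6 libraries under 0.5 CPM, whereas for MtnA both lines rise with copper.

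Genes of signalling by secreted ligands outside the Dpp pathway were also among those named. Pvf1, a PDGF/VEGF-like ligand, had 91.3 and 101 CPM in the Zld line with copper, 1.91 and 2.49 CPM in the Zld line without copper, 4.61 and 5.60 CPM in wild type with copper and 1.57 and 1.86 CPM in wild type without copper. It rose with copper in both lines and had a log2 interaction of 3.83 ± 0.29 (adjusted p = 6.68e-06), while the gene of its receptor, Pvr, was lower by 0.72 on the log2 scale (adjusted p = 0.000273). Lower interactions were found for pyr, an FGF ligand (-2.17 ± 0.27), for aos, a secreted inhibitor of the EGF receptor (-1.92 ± 0.18), and for the receptor tyrosine kinase gene Alk.

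Of 17 tested genes on a list of JNK and damage signalling, 5 were higher and 1 was lower in the interaction, against 5.96% and 6.54% of all tested genes. The cytokine gene upd2, a ligand of the JAK/STAT pathway, had 5.74 and 3.97 CPM in the Zld line with copper, 1.05 and 1.42 CPM in the Zld line without copper, 5.34 and 4.82 CPM in wild type with copper, and 5.67 and 7.08 CPM in wild type without copper. It was low in the Zld line without copper alone, and its libraries of the Zld line with copper overlapped both wild type groups. Its log2 interaction of 2.27 ± 0.37 (adjusted p = 0.00165) therefore came with equal levels of the lines at 1000 (log2 difference 0.05, adjusted p = 0.876) and a standing difference of -2.22 without copper. The same shape was seen in upd3, a related cytokine, with 13.8 and 11.3 CPM in the Zld line with copper, 4.21 and 6.47 CPM in the Zld line without copper and 13.4 to 14.3 CPM in the 4 wild type libraries (log2 interaction 1.24 ± 0.24). Gadd45, a stress gene upstream of MAP kinases, had 74.3 and 59.9 CPM in the Zld line with copper, 26.1 and 34.0 CPM in the Zld line without copper and 86.5 to 92.9 CPM in the 4 wild type libraries (1.21 ± 0.19). Socs36E, a feedback inhibitor of JAK/STAT, was higher by 0.65 ± 0.15 (a call lost under 6 of 16 other settings), the signal transducer gene Stat92E was lower by 0.43, and upd1, with 2 counts in its lowest group, was called higher. The JNK phosphatase gene puc (0.09), kay (-0.10), Jra (-0.02) and egr (-0.28) were not called. The count of members called higher was 3 without replicate 1 of the Zld line with copper or either replicate of wild type with copper, and 4 to 7 without each of the others.

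Some markers of the plasmatocyte were lower. Of 24 tested genes on a list of plasmatocyte and basement membrane genes, 0 were higher and 11 were lower in the interaction, against 6.54% of all tested genes called lower, and the median log2 interaction was -0.64. Leaving out each library in turn gave 10 to 14. The summed level of the list was 11378 to 12643 CPM in the Zld line with copper, 19303 to 19580 CPM in the Zld line without copper, 18453 to 18704 CPM in wild type with copper and 20316 to 20956 CPM in wild type without copper. The Zld line with copper was thus below the other groups, which lay close together. In bulk RNA, fewer cells of a type and less RNA per cell cannot be told apart.

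The scavenger receptor gene Sr-CI, which takes part in phagocytosis, had 5.68 and 6.84 CPM in the Zld line with copper, 42.7 and 34.6 CPM in the Zld line without copper, 39.3 and 43.7 CPM in wild type with copper, and 57.0 and 50.9 CPM in wild type without copper. Its libraries of the Zld line with copper were below all others, and its log2 interaction was -2.23 ± 0.17 (adjusted p = 5.4e-06). Hml, hemolectin, a clotting protein and standard marker of plasmatocytes, had 66.0 and 76.9 CPM in the Zld line with copper, 134 and 129.8 CPM in the Zld line without copper, 278 and 260.2 CPM in wild type with copper and 156 and 184 CPM in wild type without copper. It went down with copper in the Zld line and up with copper in wild type with no overlap, and its log2 interaction was -1.54 ± 0.13 (adjusted p = 1.46e-05). The phagocytic receptor gene eater had 12 and 12.3 CPM in the Zld line with copper and 26.8 to 45.5 CPM in the other 6 libraries (-1.22 ± 0.16).

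The genes of the basement membrane, the collagen and laminin sheet that these cells secrete, followed. Col4a1, a collagen IV chain, had 75.9 and 75.1 CPM in the Zld line with copper, 136 and 166 CPM in the Zld line without copper, 178 and 167 CPM in wild type with copper and 116 and 146 CPM in wild type without copper. Its partner vkg had 50.6 and 50.5 CPM in the Zld line with copper, 104 and 125 CPM in the Zld line without copper, 113 and 109.6 CPM in wild type with copper and 81.5 and 101 CPM in wild type without copper. Both were lowest in the Zld line with copper, with log2 interactions of -1.39 ± 0.19 for Col4a1 (adjusted p = 0.00292) and -1.47 ± 0.17 for vkg (adjusted p = 0.000867). The laminin genes LanA (-0.65) and LanB2 (-0.63) were also lower, and LanB1 (-0.18), Ppn (-0.28), SPARC (-0.38) and trol (-0.12) were not called. Glt (-1.13), a secreted glycoprotein of these cells, and Nplp2 (-2.03 ± 0.27), a neuropeptide-like precursor, were lower as well.

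The defining markers did not move alike. Of the 7, Hml, eater, Col4a1, vkg and srp were lower, srp, the GATA factor of blood cells, by 0.35 on the log2 scale, a call lost under 7 of 16 other settings. For Pxn, a peroxidase of the matrix, the log2 interaction was -0.32 (adjusted p = 0.165), and for NimC1 it was -1.27 (adjusted p = 0.132) at 0.809 to 2.0 CPM in all libraries. All 7 were present in every library. On a list of lamellocyte and crystal cell genes, markers of the other fly blood cells, 4 of 11 tested were higher and 0 lower. The shares over all tested genes were 5.96% and 6.54%. The 4 were peb (3.45 ± 0.51) and klu (2.40 ± 0.63), zinc-finger genes, cher (1.15 ± 0.10), a filamin, and the kinase gene msn (0.37 ± 0.08). For peb the values were 28.8 and 24.7 CPM in the Zld line with copper, 0.669 and 0.534 CPM in the Zld line without copper, 3.95 and 2.83 CPM in wild type with copper and 1.03 and 0.581 CPM in wild type without copper. The median of that list was 0.37, and the calls of klu and msn were lost under 8 and 4 of 16 other settings. No member of a neuron and neuroblast list was called (7 tested), and of 6 tested fat body genes only the insulin-like gene Ilp6 was called, lower by 0.40, a call lost under 6 of 16 other settings.

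The lowest interaction among called genes with more than 3 counts in each group and at least 5 CPM in 1 group belonged to Alk (chr2R:16625293-16640011). It had 3.52 and 4.19 CPM in the Zld line with copper, 25.5 and 26.3 CPM in the Zld line without copper, 50.6 and 50.6 CPM in wild type with copper and 35.8 and 46.5 CPM in wild type without copper. The Zld line with copper was below all other libraries and the Zld line without copper was below wild type. The log2 interaction was -3.05 ± 0.21 (adjusted p = 3.44e-06), with log2 copper changes of -2.73 in the Zld line and 0.31, not called, in wild type. Argk1, arginine kinase, had 60.4 and 54.8 CPM in the Zld line with copper, 368 and 378 CPM in the Zld line without copper, 665 and 672 CPM in wild type with copper and 813 and 865 CPM in wild type without copper. The 4 groups did not overlap, and its log2 interaction was -2.35 ± 0.10 (adjusted p = 8.14e-08).

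The rest of the 12 lowest ran from -2.52 to -1.92. They were CG4829, the glycosyltransferase gene Pgant2, CG7120, Sr-CI, the phospholipid flippase gene ATP8B, pyr, Erasp, Nplp2, the iduronate sulfatase gene Ids and aos. In CG7120 the fall in the Zld line was the smaller component: it had 3.21 and 2.50 CPM in the Zld line with copper, 5.74 and 5.46 CPM in the Zld line without copper, 28 and 28.3 CPM in wild type with copper and 11.7 and 10.9 CPM in wild type without copper. The log2 copper changes were -0.92 in the Zld line and 1.33 in wild type. CrebA, a transcription factor of secretory pathway genes, had 82.8 and 87.7 CPM in the Zld line with copper, 236 and 201 CPM in the Zld line without copper, 169.8 and 177 CPM in wild type with copper and 154 and 164 CPM in wild type without copper. It was lowest in the Zld line with copper, with a log2 interaction of -1.46 ± 0.10.

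In a further class the copper response of wild type was missing in the Zld line. Tep2, a thioester-containing protein of blood cells, had 134 and 121 CPM in the Zld line with copper, 122 and 137 CPM in the Zld line without copper, 292 and 279 CPM in wild type with copper and 127 and 123 CPM in wild type without copper. Wild type with copper stood alone and the other 3 groups overlapped, and the log2 interaction was -1.20 ± 0.11 (adjusted p = 2.46e-05). In the other direction, Tdh, threonine dehydrogenase, had 3.64 and 2.65 CPM in the Zld line with copper, 3.44 and 4.15 CPM in the Zld line without copper, 0.729 and 0.662 CPM in wild type with copper and 5.73 and 6.33 CPM in wild type without copper. Copper lowered it in wild type and its groups in the Zld line overlapped, with a log2 interaction of 2.83 ± 0.37 (adjusted p = 0.00046). In the receptor gene Toll-7 copper was also called in wild type alone, with 53.1 and 49.0 CPM in the Zld line with copper, 63.7 and 55.2 CPM in the Zld line without copper, 20.3 and 21.0 CPM in wild type with copper and 48.7 and 51.5 CPM in wild type without copper (1.08 ± 0.12). Both Zld libraries with copper were below those without, at a log2 copper change of -0.18 (adjusted p = 0.0844), a smaller difference than the -1.26 of wild type.

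In 119 genes copper was called in opposite directions in the lines, 43 with a positive and 76 with a negative interaction. In 8 of them both changes were at least 2-fold, and all 8 were up in the Zld line and down in wild type: dpp, the glutamate transporter gene Eaat1, sano, the pseudokinase gene otk, CG9691, slbo, the fly C/EBP gene, the paired-box gene gsb-n and CG13458. Apart from dpp, these are named because of their small number, after their values were seen. Several were near the floor. Counts summed over the lowest group were 4 in slbo, 10 in sano and CG13458, 11 in dpp, and 26 to 46 in otk, CG9691, gsb-n and Eaat1. The lines were not called different in sano at 1000 (adjusted p = 0.0752). Values with a library left out are given here for dpp alone. Eaat1 averaged 29.7 ± 1.43 CPM in the Zld line with copper, 6.29 ± 0.506 CPM in the Zld line without copper, 1.39 ± 0.0939 CPM in wild type with copper and 4.41 ± 0.502 CPM in wild type without copper (SD, 2 libraries each), a log2 interaction of 3.89 ± 0.24. At higher levels, CG17646 had 250.1 and 283 CPM in the Zld line with copper, 91.4 and 79.2 CPM in the Zld line without copper, 53.3 and 56.8 CPM in wild type with copper and 88.3 and 83.7 CPM in wild type without copper. The lines were alike without copper and moved apart with it, and its log2 interaction was 2.31 ± 0.10 (adjusted p = 1.35e-07). Meltrin, an ADAM metalloprotease gene, moved apart the other way, with 244 and 229 CPM in the Zld line with copper, 431 and 417 CPM in the Zld line without copper, 637 and 619 CPM in wild type with copper and 429 and 426 CPM in wild type without copper (-1.38 ± 0.08).

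The interaction on the log2 scale compares ratios, and 9 of the 1110 called genes had the other sign when the copper differences were compared in CPM. One was yin, a peptide transporter gene, with 26.7 and 24.8 CPM in the Zld line with copper, 136 and 138 CPM in the Zld line without copper, 228 and 229.9 CPM in wild type with copper and 363 and 360.3 CPM in wild type without copper. It lost more of its level in proportion in the Zld line (log2 interaction -1.74 ± 0.08) and more CPM in wild type.

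Gene lists of the cell cycle and of protein folding held several calls, all of them lower. Of 29 tested genes on a DNA replication and cell cycle list, 8 were lower and 0 higher, against 6.54% of all tested genes called lower, with a median of -0.22. The replication clamp gene PCNA had 197 and 227 CPM in the Zld line with copper, 339 and 349 CPM in the Zld line without copper, 300.1 and 297 CPM in wild type with copper and 336 and 347 CPM in wild type without copper, so it was lowest in the Zld line with copper (log2 interaction -0.49 ± 0.09, adjusted p = 0.00461). Claspin (-0.86 ± 0.13), a replication checkpoint gene, Mcm7 (-0.57 ± 0.16) and Mcm2 (-0.43), subunits of the replicative helicase, the factor gene E2f1 (-0.50 ± 0.10), CycE (-0.43), RnrS (-0.36), a ribonucleotide reductase subunit, and the mitotic kinase gene polo (-0.28) were the others. Overlapping genes cover 81.7% of the exonic bases of Mcm7, whose call was lost under 9 of 16 other settings. The count was 3 without replicate 1 of wild type with copper or replicate 1 of wild type without copper, 4 without replicate 1 of the Zld line with copper, 5 without replicate 2 of wild type with copper and 16 without replicate 1 of the Zld line without copper. The mitotic cyclin genes CycA (-0.05) and CycB (-0.06) and Cdk1 (-0.10) were not called.

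Of 18 tested genes of the unfolded protein response, which adjusts the folding capacity of the endoplasmic reticulum, 6 were lower and 0 higher, against 6.54% of all tested genes called lower. The chaperone gene Hsc70-3, the fly BiP, had 2343 and 2235 CPM in the Zld line with copper, 2049 and 2238 CPM in the Zld line without copper, 2288 and 2231 CPM in wild type with copper and 1437 and 1530.3 CPM in wild type without copper. Only wild type without copper stood apart, below the rest, and the log2 interaction was -0.50 ± 0.11 (adjusted p = 0.0112). The disulfide isomerase genes ERp60 (-0.41), Pdi (-0.35) and CaBP1 (-0.32), Sil1 (-0.37) and the translocon gene Sec61alpha (-0.36) were the others. Without copper, 11 of the 18 were called higher and 0 lower in the Zld line than in wild type. The shares over all tested genes were 10.4% and 10.2%. At 1000, 5 were higher and 3 lower (20.1% and 18.4%). For the 6 genes lower in the interaction, the log2 copper change lay between -0.13 and 0.12 in the Zld line. In wild type it lay between 0.24 and 0.62. The count fell to 0 without replicate 1 of wild type with copper or without replicate 1 of wild type without copper, to 1 without replicate 2 of wild type with copper, and to 2 or 3 without replicate 2 of wild type without copper or either replicate of the Zld line with copper, so these calls rest on single libraries. The stress genes Xbp1 (-0.08), crc (0.13) and PEK (0.10) were not called.

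The median log2 interaction of 22 tested heat shock and chaperone genes was -0.28, against 0.02 for all genes. Copper was called higher for 14 of them in the Zld line and for 20 in wild type. The shares over all tested genes were 23.8% and 15.3%. In the interaction 0 were higher and 2 were lower, the latter a share near the 6.54% of all tested genes. They were Hsc70-3 and the small heat shock gene Hsp26 (-0.50 ± 0.12), whose calls were lost under 5 and 6 of 16 other settings. Copper raised Hsp26 in both lines, to 1062 and 1187 CPM in the Zld line with copper, against 658 and 716 CPM in the Zld line without copper, and to 1599 and 1629 CPM in wild type with copper, against 641 and 742 CPM in wild type without copper. None of 32 proteasome subunits was called, at a median of -0.03. The median log2 interaction of 84 tested ribosomal protein genes was 0.22, against 0.02 for all genes. At 1000, 74 of the 84 were called higher in the Zld line than in wild type, against 20.1% of all tested genes. Without copper 29 were called higher, against 10.4%. In the interaction 0 were lower and 3 were higher, a share below the 5.96% of all tested genes. The 3 were RpS19b (1.34 ± 0.15), RpS9 (0.40) and RpS6 (0.39), and RpS9 and RpS6 each lost the call under 10 of 16 other settings. RpS19b, a paralog of RpS19a that shares sequence with it, had 39.8 and 34.6 CPM in the Zld line with copper, 19.0 and 20.7 CPM in the Zld line without copper, 19.6 and 18.2 CPM in wild type with copper and 25.3 and 25.5 CPM in wild type without copper. Among 35 tested genes of oxidative stress and glutathione, 6 were higher and 4 lower, against 5.96% and 6.54% of all tested genes. Among the 6 were GstS1 (1.61 ± 0.22), GstD9 (0.95 ± 0.16), the autophagy receptor gene ref(2)P (0.75) and Keap1 (0.57), the sensor that holds the antioxidant factor cnc in check. Among the 4 were the peroxiredoxin gene Prx6b (-1.09 ± 0.22) and GstT4 (-0.82 ± 0.10). GstD9 lost its call without either replicate of the Zld line without copper. The factor gene cnc (0.14) and the glutathione synthesis gene Gclc (0.16) were not called.

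Cell death genes held 4 higher and 1 lower of 19 tested, against 5.96% and 6.54% of all tested genes. The cell death activator gene hid had 95.6 and 91.8 CPM in the Zld line with copper, 66.4 and 51.5 CPM in the Zld line without copper, 41.2 and 42.0 CPM in wild type with copper and 68.7 and 67.1 CPM in wild type without copper. It rose with copper in the Zld line and fell in wild type without overlap, with a log2 interaction of 1.40 ± 0.12 (adjusted p = 1.9e-05). Corp, a p53 target gene, was higher by 3.56 ± 0.71 at levels of 0.178 to 2.22 CPM, the caspase genes Dcp-1 (0.48) and Drice (0.26) were higher, and the damage kinase gene tefu (-0.54 ± 0.09) was lower. Dcp-1 lost its call under 8 of 16 other settings, among them the omission of any library with copper or of either library of wild type without copper.

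The early zygotic genes, among which are the best known Zld targets in the embryo, held no call in the interaction. Their median log2 interaction was nevertheless 0.90, against 0.02 for all genes, over the 16 members with more than 3 counts in each group. The median log2 copper changes of these members were 0.34 in the Zld line and -0.45 in wild type. The lack of calls therefore does not show that these genes responded alike. The medians include replicate 1 of both groups without copper, and whether they depend on these libraries was not tested. In wild type without copper, 28 of the 45 had more than 2 times as many counts in replicate 1, and 0 in replicate 2. In the Zld line without copper these numbers were 25 and 4. Of the 45 on the list 22 were tested, with 0 higher and 0 lower in the interaction. With copper 7 were called higher in the Zld line, against 23.8% of all tested genes. In wild type 5 were called higher with copper, against 15.3% of all tested genes, and 1 lower. The numerator gene sisA, an X-linked signal of sex determination, had 148 and 139 counts in the Zld line with copper, 2 and 1 in the Zld line without copper, 0 and 1 in wild type with copper and 0 and 0 in wild type without copper. Its copper change was called in the Zld line (adjusted p = 8.38e-07), but the interaction was not (adjusted p = 0.945, with an SE of 24.9), with a single count in all 4 wild type libraries. In all, 26 genes rose at least 2-fold with copper in the Zld line with 3 or fewer counts in each wild type group, and 2 of them were called in the interaction. The gene sisA was chosen for display after its values were seen.

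The early list also held the difference between replicates described above. The twi gene, a mesoderm factor, had 27 and 41 counts in the Zld line with copper, 7 and 1 in the Zld line without copper, 3 and 4 in wild type with copper and 22 and 2 in wild type without copper. Z600, a regulator of the embryonic cell cycle, had 84 and 55 counts in the Zld line with copper, 24 and 7 in the Zld line without copper, 20 and 13 in wild type with copper and 66 and 4 in wild type without copper. In both genes replicate 1 was the higher in both groups without copper, and replicate 1 of wild type without copper was above both libraries of wild type with copper.

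Genes of embryonic tissues moved in small sets. On a mesoderm list 4 of 18 tested were higher and 2 lower, against 5.96% and 6.54% of all tested genes. T48, which acts in the folding of the ventral furrow, had 33.0 and 31.8 CPM in the Zld line with copper, 2.96 and 4.15 CPM in the Zld line without copper, 5.77 and 6.20 CPM in wild type with copper and 2.76 and 3.48 CPM in wild type without copper (2.20 ± 0.26). The secreted folding signal fog was lower by 0.60. The FGF receptor gene htl was higher by 2.58 ± 0.71, with 23 and 11 counts in the Zld line without copper and 31 and 14 in wild type without copper. Its call was lost without replicate 1 of wild type without copper (1.98, adjusted p = 0.226), without either replicate of the Zld line with copper, without replicate 1 of wild type with copper and when tested against 1.5-fold. On a muscle list 3 of 16 were higher and 2 lower, against the same shares of all tested genes. The cell adhesion gene rst had 101 and 114 CPM in the Zld line with copper, 8.41 and 10.1 CPM in the Zld line without copper, 2.79 and 3.73 CPM in wild type with copper and 3.94 and 3.60 CPM in wild type without copper (3.73 ± 0.24). Mlp60A, a muscle LIM protein, was higher by 3.37 ± 0.51. These lists had medians of -0.03 and 0.04.

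Of the epithelial lists, polarity and adherens junction genes held 3 higher and 1 lower of 19 (baz 0.81, pyd 0.77, sdt 0.48 and dlg1 -0.34), and septate junction genes 0 higher and 2 lower of 18 (cora -0.57 and Atpalpha -0.54). The shares over all tested genes were 5.96% higher and 6.54% lower. The call of dlg1 was lost under 4 of 16 other settings. A cuticle, barrier and wound list held 2 higher of 13, Duox and msn, and 0 lower. Its median log2 interaction was 0.96, over 12 members with more than 3 counts in each group. Copper was called higher for 10 of the 13 in the Zld line (23.8% of all tested genes). In wild type it was called higher for 5 (15.3%) and lower for 1. At 1000, 9 were higher in the Zld line than in wild type (20.1%). The oxidase gene Duox had 16.5 and 15.5 CPM in the Zld line with copper, 1.53 and 1.36 CPM in the Zld line without copper, 4.13 and 3.97 CPM in wild type with copper and 1.67 and 2.03 CPM in wild type without copper. It rose in both lines and more in the Zld line (2.36 ± 0.29). On the ecdysone response list 6 of 16 were higher (5.96% of all tested genes), the nuclear receptor gene Hr4 (1.21 ± 0.27), ImpE3 (1.19 ± 0.34), vri (1.03 ± 0.14), Eip78C (0.91), br (0.73) and MsrA (0.71), and Sgs1 was lower (-2.14 ± 0.55). The call was lost under 9 of 16 other settings for ImpE3, among them the replicate block (adjusted p = 0.0538), under 6 for Sgs1 and under 4 for Hr4. The receptor genes EcR (0.01) and usp (-0.07) were not called. One Notch target, E(spl)mbeta-HLH (0.47 ± 0.09), and the germline genes bam (1.5 ± 0.41) and aub (0.32 ± 0.09) were higher, calls lost under 9 and 10 of 16 other settings, and 0 of 4 tested antimicrobial peptide genes were called.

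**Figure D5:**
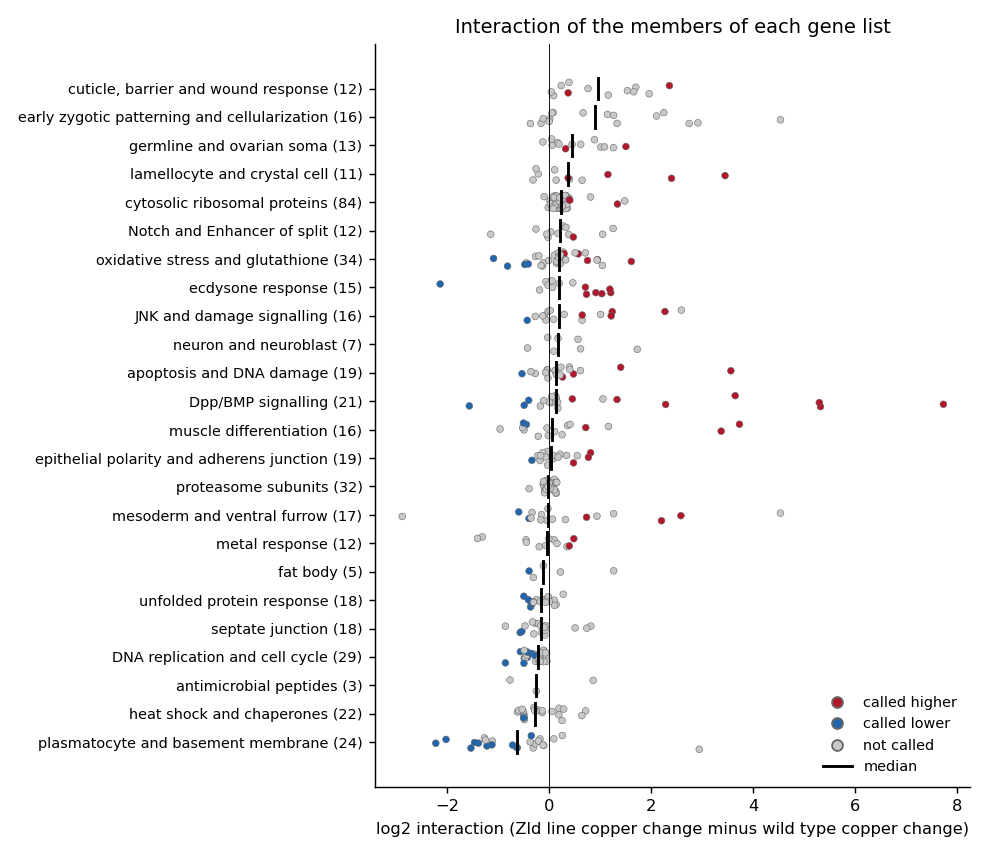
Log2 interaction (x axis) of each list member with more than 3 counts in each group (number in brackets), red where called higher, blue where called lower, grey where not called, with the list median as a bar. Plasmatocyte and basement membrane genes have the lowest median at -0.64, and members of the Dpp/BMP list run from dally at -1.57 to Dtg at 7.74.

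Several transcription factor genes with steady counts were also higher. The gene bowl, of the odd-skipped family, had 146 and 153 CPM in the Zld line with copper, 57.7 and 54.5 CPM in the Zld line without copper, 82.5 and 78.5 CPM in wild type with copper and 88.3 and 88.3 CPM in wild type without copper (1.56 ± 0.08). The zinc-finger gene chn had 217 and 209 CPM in the Zld line with copper, 68.5 and 66.8 CPM in the Zld line without copper, 48.4 and 49.97 CPM in wild type with copper and 53.1 and 62.3 CPM in wild type without copper (1.90 ± 0.11). For both, copper moved the Zld line and the wild type change was not called. Genes called in the interaction were spread over the chromosomes, with 5.38% to 6.76% of the tested genes of 2L, 2R, 3L, 3R and X called higher and 5.70% to 7.24% called lower, and 1 of 81 in each direction on chromosome 4.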

How the data were processed

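The deposited tables hold raw read counts for each gene in each library. The submitters' processing notes name HISAT2 2.1.0, Subread 2.0 with its featureCounts, DESeq2 and the dm6 assembly, without their order. The annotation release, strand setting and treatment of overlapping genes are not given in the sources used here, and per the labels the library kit was TruSeq v2, which does not keep strand. The deposited table's other column, gene length, was not used for any result. Symbols were found for 17561 of 17609 genes. Coordinates and exonic overlap come from the Ensembl annotation of the same assembly.

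The 8 libraries were fitted with edgeR 4.0.16 in R 4.3.3: filterByExpr, TMM, robust quasi-likelihood F test of the 4-group contrast, two-sided, with Benjamini-Hochberg adjustment over 8881 genes. Calls have an adjusted p under 0.05. The SE is the log2 value over the root of F. CPM use library size alone. The fit was tested on simulated counts.

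The members and lists were chosen with earlier results of these data known. There were 24 lists, from which 8 entries did not match a symbol. Medians of lists use members with more than 3 counts in each group. Named genes were the 14 highest and 12 lowest interactions (over 3 counts in each group and at least 5 CPM in 1 group), 4 called genes with 3 or fewer counts in a group, up to 4 called members of each list and up to 4 genes of each class of copper effects by p, and zld, MtnA and plasmatocyte markers. Other list members are named, called or not, to show the rest of a pathway. Alternatives were RLE factors, library size alone, DESeq2 1.42.0, limma 3.58.1 voom, no filter, all 18 libraries, a replicate block, a test against 1.5-fold, and each library left out. A gene in 1 class of copper effects is not reported here.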

Additional observations from a re-analysis of the deposited data

Results flagged for a closer look

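All 1110 genes called in the interaction have copper effects that differ between the lines by the test of that difference. Those below are the named genes in which both copper effects were called and had opposite signs. With a positive log2 interaction, up in the Zld line and down in wild type, they were babos (6.36), dpp (5.32), CG17646 (2.31), atos (1.64), lncRNA:CR44498 (1.47), hid (1.40), RpS19b (1.34) and sdt (0.48). With a negative log2 interaction, down in the Zld line and up in wild type, they were CG4829 (-2.52), CG7120 (-2.26), pyr (-2.17), Erasp (-2.04), Ids (-1.98), aos (-1.92), CG8501 (-1.69), Hml (-1.54), Meltrin (-1.38) and E2f1 (-0.50). The wild type component was the larger of the pair in CG7120 (-0.92 in the Zld line and 1.33 in wild type), CG8501 (-0.62 in the Zld line and 1.07 in wild type) and, by a small margin, sdt (0.23 in the Zld line and -0.24 in wild type), and the Zld component in the others. For E2f1 the call was lost without replicate 1 of wild type with copper and without replicate 1 of wild type without copper. With 2 libraries per group no library could be tested as deviating from its group.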

How the results depend on the processing

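The interaction count of 1110 was 1124 with RLE size factors, 1092 with library size alone, 867 with DESeq2, 1512 without the filter (14037 genes tested), 764 with all 18 libraries, 1137 with limma voom and 217 tested against 1.5-fold (152 higher, 65 lower), where the count of at least 2-fold was 204 against 357. With each library left out it was 593 to 2000. The fit with a replicate block gave 998. The labels give the libraries a shared number and no shared origin. Correlations of replicate deviations were 0.37 between the groups without copper, 0.15 between those with copper and -0.30 to -0.09 across copper states, so the numbers did not pair all 4 groups. No called gene was called the other way under any of these settings, and RLE or library size scaling left the median interaction of all genes at 0.01. With each library left out copper in wild type called 1227 to 3575 genes, the lines at 1000 differed in 2104 to 4382 and without copper in 782 to 2729.

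Tested against 1.5-fold, 7 plasmatocyte, 0 replication, 0 unfolded protein response and 2 JNK list members were called. With all 18 libraries the JNK list gave 3, replication 4 and the unfolded protein response 2, and without the filter the JNK list gave 9. With a library left out the plasmatocyte list gave 10 to 14, replication 3 to 16, Dpp/BMP 6 to 8, the unfolded protein response 0 to 9 and JNK 3 to 7. Of 119 genes with opposite copper effects, 8 had both at least 2-fold, and 9 called genes had the other sign in CPM. With a library left out MtnA ran from -1.22, called, to 0.029, where its sign turned (without replicate 1 and replicate 2 of wild type without copper). Among 2000 results of named genes under other settings, 277 calls were lost and 4 gained, and the cause was not tested. The planned share of promoters with Zld motifs was not run. Depth limits genes near 3 counts in wild type.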
